A study of Mus musculus with 7 samples.

Results

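Kidney T lymphocytes were taken as the cells that the authors placed in cluster 14 of their clustering of mouse kidney cells. They were 1308 of the 43745 cells in the deposited matrix. The series profiled single cells of whole kidneys from 7 healthy C57BL/6 mice, aged 4 to 8 weeks, with a droplet method that counts unique molecular identifiers (UMIs) at transcript ends. By label, 1 kidney came from a Cdh16CremTmG mouse, 1 from an SclCremTmG mouse, 1 from an Nphs2CremTmG mouse and 4 from WT mice. In the 3 reporter lines, Cre driven by a tubule, a haematopoietic and endothelial, or a podocyte gene switches a membrane fluorescent reporter. Each barcode carries a library number from 1 to 7 at its end, and no source used here ties a number to a mouse, so no genotype was compared and each library is given by its number.

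T lymphocytes recognise antigen through a T cell receptor held in the membrane with the CD3 chains, which carry the signal into the cell. CD4 and CD8 are coreceptors that mark the helper and cytotoxic branches. Cells that circulate through lymph nodes depend on the chemokine receptor Ccr7 and the lipid receptor S1pr1, while Cxcr6 is a chemokine receptor known from T cells that stay in tissues. Innate lymphoid cells, natural killer cells among them, share many of these genes but lack a T cell receptor.

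The 4 markers that go with the name, Cd3g, Il7r, Ltb and Cxcr6, were highest in cluster 14 of all 16 clusters. Cd3g, the gamma chain of CD3, had 615 CPM in the lowest library, 880 in the median and 1163 in the highest (CPM, UMIs of the cluster's summed cells scaled to a common total). Il7r, the receptor for the survival cytokine interleukin-7, had 136, 232 and 419 CPM in the lowest, median and highest library. Ltb, which encodes lymphotoxin beta, had 362, 529 and 1097 CPM, and Cxcr6 had 112, 298 and 614 CPM. In the proximal tubule-like cluster 3, the largest of the kidney, each of the 4 genes was below 1 CPM. Other T lymphocyte markers were not all highest in cluster 14. Cd3d and Cd3e were, but Cd2, Lck and Cd28 were not. Pooled, Cd2 had 199 CPM in cluster 14, 217 CPM in the natural killer-like cluster 15 and 324 CPM in cluster 16. Lck had 406, 539 and 508 CPM in clusters 14, 15 and 16, and Cd28 had 195, 39.9 and 265 CPM. Of the other cell classes, 12 measured B lymphocyte markers summed to 12.4 CPM in cluster 14, with 4 of them at 0, and no cell held a UMI of the B cell receptor component Cd79a (0 of 1308 cells, which allows a share of cells with a UMI of up to 0.229% and sets no limit on cells expressing the gene). The 10 neutrophil markers summed to 41.5 CPM with 4 at 0, and the 5 podocyte markers to 5.68 CPM. Markers of other classes were present in cluster 14, and the 15 proximal tubule markers were the highest of them, at 5955 to 18735 CPM summed across libraries. Pooled, that was 21.1% of their level in cluster 3. The 10 monocyte markers summed to 344 to 1318 CPM across libraries with 3 at 0, and the 5 distal convoluted tubule markers to 225 to 758 CPM with none at 0. The 15 natural killer markers summed to 194 to 641 CPM with 1 at 0. The part of these transcripts in the results below was not tested.

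The 3 CD3 chain genes lie close together on mouse chromosome 9. All 3 were highest in cluster 14, and in cluster 12 Cd3d had 60.5 CPM while Cd3g and Cd3e were at 0. Cd3g (chr9:44969572-44980431, minus strand) and Cd3d (chr9:44981786-44987339, plus strand) are transcribed away from each other, with start sites 1355 bases apart, and Cd3e (chr9:44998740-45009627, minus strand) follows (GENCODE vM21, GRCm38). Their promoters, from RefSeq on GRCm38.p6 and 300 bases each, are shown because all 3 genes are among the leading genes of this cluster. Capitals mark every match, on either strand, to the E-box letters CAGGTG (reverse complement CACCTG), bound by E proteins, and to the ETS core AGGAAG (reverse complement CTTCCT). The windows are chr9:44980382-44980681 on the minus strand for Cd3g, chr9:44981536-44981835 on the plus strand for Cd3d and chr9:45009562-45009861 on the minus strand for Cd3e.
Cd3g: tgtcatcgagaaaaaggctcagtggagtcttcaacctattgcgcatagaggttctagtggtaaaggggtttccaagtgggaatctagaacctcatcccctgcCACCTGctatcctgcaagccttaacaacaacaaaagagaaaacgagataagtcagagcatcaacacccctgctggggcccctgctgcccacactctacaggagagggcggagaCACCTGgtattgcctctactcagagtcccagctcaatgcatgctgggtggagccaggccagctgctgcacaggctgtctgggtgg
Cd3d: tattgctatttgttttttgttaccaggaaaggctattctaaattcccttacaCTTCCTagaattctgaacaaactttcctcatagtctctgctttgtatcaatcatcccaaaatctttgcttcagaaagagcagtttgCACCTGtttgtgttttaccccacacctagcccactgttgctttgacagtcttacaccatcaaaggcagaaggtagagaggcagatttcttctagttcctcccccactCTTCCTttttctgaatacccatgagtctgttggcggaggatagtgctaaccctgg
Cd3e: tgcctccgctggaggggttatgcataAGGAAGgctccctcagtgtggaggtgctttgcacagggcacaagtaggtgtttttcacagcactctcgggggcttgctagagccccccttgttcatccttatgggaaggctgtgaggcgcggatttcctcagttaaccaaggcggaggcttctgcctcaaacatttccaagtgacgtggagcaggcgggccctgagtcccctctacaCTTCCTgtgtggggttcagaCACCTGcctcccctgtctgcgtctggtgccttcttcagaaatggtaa
The E-box letters were present in all 3 windows, 2 times in that of Cd3g and 1 time in each of the others, against 20.2% of 32851 promoters of the same length. The ETS letters were found 2 times each in the Cd3d and Cd3e windows and in 35.4% of all promoters. The RUNX core TGTGGT, found in 16.8% of all promoters, matched in none of the 3 windows. A match to letters is a description and no evidence that a factor binds there.

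Cluster 14 made up very different shares of the 7 libraries. It was 3.30% of cells in library 1, 1.80% in library 2, 10.8% in library 3, 13.98% in library 4, 1.70% in library 5, 2.56% in library 6 and 0.730% in library 7. Libraries 3 and 4 stood apart, and the Wilson 95% intervals of their shares, 9.31% to 12.6% and 12.7% to 15.3%, did not overlap those of the other 5. The median share was 2.56%, and 1.80% without libraries 3 and 4. Among the cells of the immune clusters 10 to 16 the share was also highest in libraries 3 and 4, at 63.0% and 71.9%, against 21.8% to 48.6% in the others. The ratio of cluster 14 cells to cells of the natural killer-like cluster 15 varied less, between 2.88 and 5.71. Cells of cluster 14 held a median of 1470 to 2207 UMIs by library, with 4.25% to 10.7% from mitochondrial genes. Of the cluster 14 cells, 59 had a barcode that also occurs in another library, and 2 barcodes had a cluster 14 cell in more than 1 library.

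**Figure D1:**
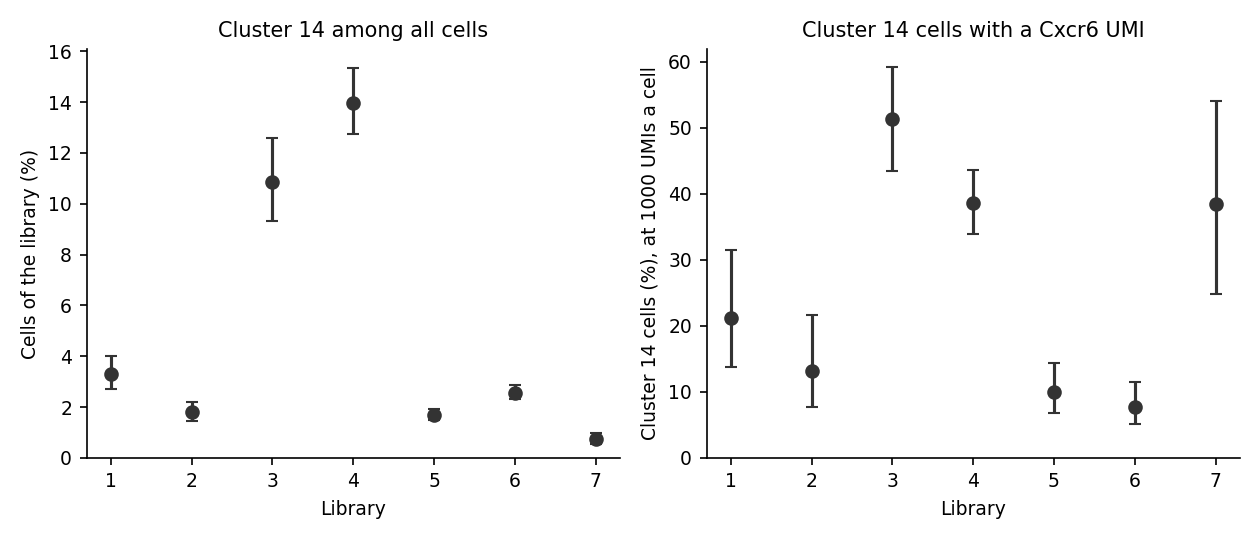
Left, cluster 14 as a percent of all cells of each library; right, the percent of cluster 14 cells with a Cxcr6 UMI after each cell was reduced at random to 1000 UMIs. Points are single libraries and bars are Wilson 95% intervals, which cover counting error only; libraries 3 and 4 are high in both panels, and library 7, with 39 cluster 14 cells, is high in the right panel alone.

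The genes furthest above the rest of the kidney in cluster 14 included Il7r, the CD3 genes, Cxcr6 and Thy1. Levels were compared with the mean of the other clusters in each library. Only clusters with at least 5 cells in a library entered its mean, so the clusters compared can differ between libraries. Of 16272 genes, 134 (0.824%) were at least 2-fold higher in all 7 libraries and 345 (2.12%) at least 2-fold lower. The authors grouped the cells on these same genes, so these folds describe the cluster and carry no p-value. Il7r led with a median log2 fold of 4.16, followed by Cd3g at 3.58 and Cxcr6 at 3.58. Thy1, a surface protein of mouse T cells, had 3.44, Cd3d had 3.10 and Cd3e had 3.04. The T lineage transcription factors Lef1, Tcf7 and Bcl11b had log2 folds of 3.02, 3.00 and 2.93, and the chromatin organiser Satb1 had 2.49. The signalling adaptors Skap1 and Lat had 3.04 and 2.55, and the costimulatory receptors Icos, Tnfrsf18 and Cd28 had 2.85, 2.67 and 2.63. Ltb, Dapl1, Gimap3, Cd8b1 and Fam189b completed the 20 leading genes, with 2.96, 2.86, 2.84, 2.65 and 2.58. Folds over this mean do not by themselves set cluster 14 apart from the clusters most like it. Pooled, Thy1, Skap1, Tcf7, Dapl1, Icos, Cd28, Lat and Cd8b1 were higher in cluster 16 than in cluster 14. Thy1 had 274 CPM in cluster 14 and 442 CPM in cluster 16, and Cd8b1 had 143 and 335 CPM. Cd8b1 was also higher in cluster 15, at 153 CPM. The other leading genes were highest in cluster 14.

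By function, all 4 measured genes of the T cell receptor and CD3 complex were 2-fold higher in every library. Its constant-region genes, such as Trac, Trbc1 and Trdc, were sought and were not among the gene symbols of the matrix. The 2-fold rule also held for 14 of 21 genes of T cell receptor signalling. Among them were the kinase gene Lck at 285 to 608 CPM and Lat at 274 to 509 CPM. Pooled, the 21 genes summed to 2661 CPM in cluster 14, 2845 CPM in cluster 15 and 3261 CPM in cluster 16. By the same rule, 0 of the 21 were higher than in cluster 15. Lck had 406 CPM in cluster 14 pooled, 539 CPM in cluster 15 and 508 CPM in cluster 16. Against the mean of the other clusters, the rule held for 8 of 16 genes of costimulation and adhesion. Examples were Cd27 at 102 to 311 CPM and Cd2 at 151 to 250 CPM. Pooled, the 16 genes summed to 1523 CPM in cluster 14, 1500 CPM in cluster 15 and 2396 CPM in cluster 16. Cd2 itself was higher in clusters 15 and 16 than in cluster 14. Against the mean of the other clusters, 6 of 18 T lineage transcription factors were higher and 1 was lower. Of 21 cytokine receptors 4 were higher, among them Il18r1 at 37.3 to 177 CPM, and of 8 GIMAP genes, GTPases of lymphocytes, 3 were higher. Of 14 cytokine genes measured, 1 was higher, which was Ltb, while Ifng and Il4 had 46 and 30 UMIs in the whole cluster and Areg had 0. None of 7 inhibitory receptors and none of 15 cell cycle genes was higher in every library. With 0.824% of all genes higher, counts of 0 in lists this short do not set these genes apart. The 15 cell cycle genes summed to 5.77% of their level in cluster 16. Pooled, the 8 GIMAP genes summed to 1855 CPM in cluster 14, 1864 CPM in cluster 15 and 1940 CPM in cluster 16. The median log2 fold of the list was 3.07 for the receptor complex, 1.93 for signalling and 1.01 for the transcription factors, against -0.12 for all genes.

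**Figure D2:**
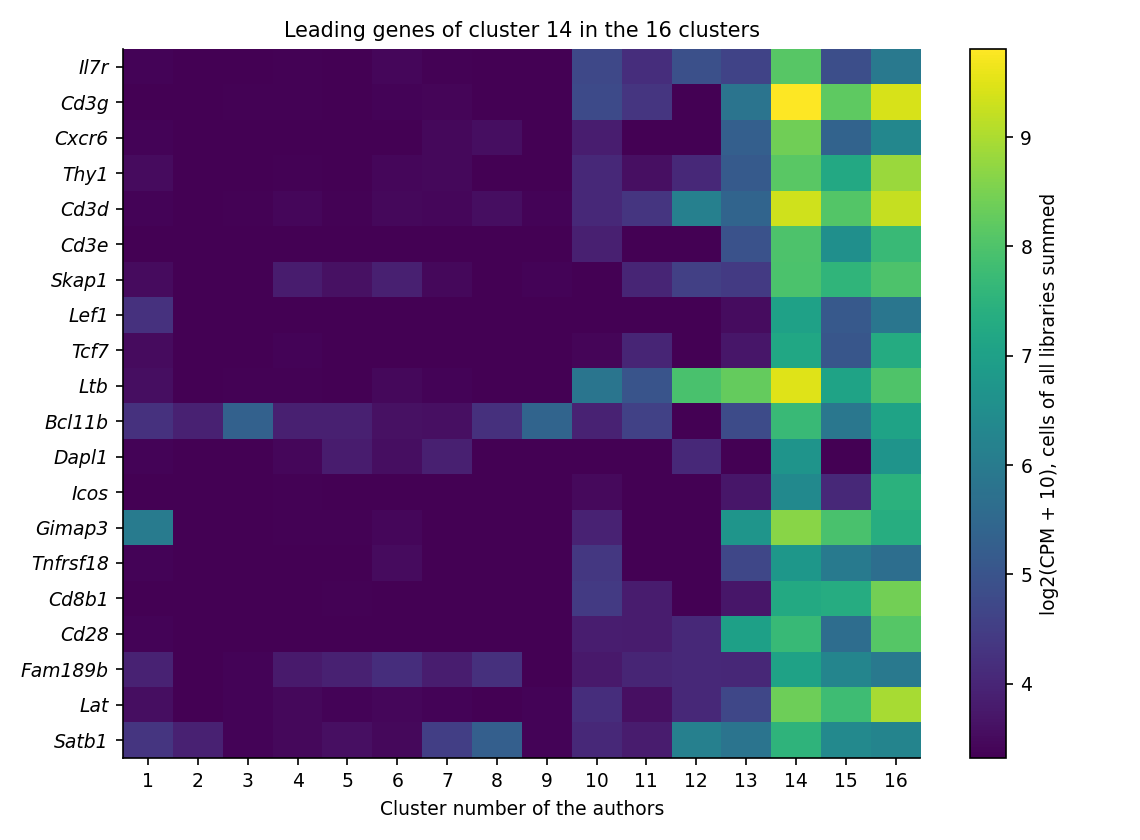
Level of the 20 leading genes of cluster 14 (rows) in the authors' 16 clusters (columns), as log2(CPM + 10) of the summed cells of all libraries. Signal is strongest in clusters 14, 15 and 16, and Ltb is also high in clusters 12 and 13.

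Over the 16 clusters, the genes whose level was most like that of Cd3g were Cd3e (Pearson r = 0.992), Xlr4b (0.986), Thy1 (0.984), the kinase gene Zap70 (0.981), Lat (0.981), Lck (0.979), Tnfrsf18 (0.975) and Ms4a4b (0.973). These are descriptions over 16 points that share libraries, and clusters 14, 15 and 16 hold most of the signal. Pooled, Cd3g had 883 CPM in cluster 14, against 666 CPM in cluster 16 and 285 CPM in cluster 15.

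Against the natural killer-like cluster 15, cluster 14 was higher in Il7r, Ccr7 and Cxcr6 and lower in Gzma, Gzmb, Ccl3, Ccl4, Ccl5, Ncr1, Klra4 and Klra7. In the 5 libraries with at least 20 cells of both clusters, 29 genes (0.178%) were at least 2-fold higher in cluster 14 in every library and 54 (0.332%) at least 2-fold lower. Without library 5, the count of higher genes was 50. Il7r had a median of 276 CPM in cluster 14 and 26.6 CPM in cluster 15, a log2 fold of 3.05. Ramp1, part of the receptor for the neuropeptide CGRP, had 131 CPM in cluster 14 and 5.35 CPM in cluster 15, and Cxcr6 had 136 CPM in cluster 14 and 18.2 CPM in cluster 15. Ccr7 and Dapl1 had no UMI in cluster 15 and were at least 27.5-fold and 22.2-fold higher in cluster 14, taking 3 counts over cluster 15 as the floor. Icos, Slamf6, Inpp4b, Ifi27l2a and Rgs10 completed the 10 higher genes, with log2 folds of 2.28 to 2.78.

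On the lower side, the granzyme gene Gzma had a median of 59.2 CPM in cluster 14 and 8641 CPM in cluster 15, a log2 fold of -6.57. Gzmb, another granzyme gene, had a log2 fold of -5.34. The chemokine gene Ccl5 had 1586 CPM in cluster 14 and 27215 CPM in cluster 15, and Ccl4 and Ccl3 had log2 folds of -4.95 and -3.96. Tyrobp, the adaptor DAP12 of natural killer receptors, had 72.3 CPM in cluster 14 and 1946 CPM in cluster 15. The receptor genes Ncr1, Klra4 and Klra7 had log2 folds of -3.98, -5.29 and -3.98, and Cma1, a chymase gene, had -4.82. Of the 15 natural killer markers 14 were lower in cluster 14, and of 12 cytotoxic granule genes 5 were lower. The CD3 genes did not separate the clusters by this rule: a CD3 UMI was seen in 75.2% of cluster 14 cells and 22.7% of cluster 15 cells at 1000 UMIs a cell, and the log2 fold of Cd3g ran from 0.35 to 4.03 over the 5 libraries.

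**Figure D3:**
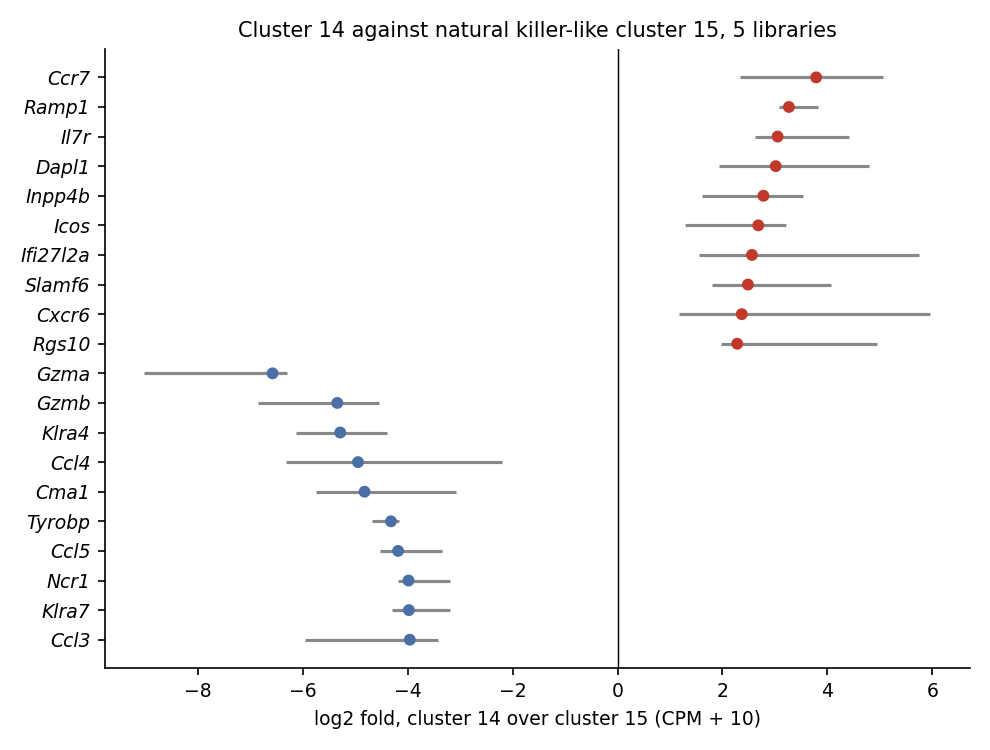
log2 fold of cluster 14 over cluster 15 for the 10 genes furthest to each side; points are medians and lines the range over the 5 libraries used, with 10 CPM added to both sides. Ccr7 and Dapl1 had no UMI in cluster 15, so their position depends on the added 10 CPM.

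Most cells of cluster 14 showed CD3 transcripts without a coreceptor transcript. At 1000 UMIs a cell, 1250 cells remained and 58 shallower ones were left out. Of the 1250, 75.2% had a UMI of Cd3d, Cd3e or Cd3g (86.2% of 1308 cells before thinning), against 0.0563% of cluster 3 cells. Cd8a or Cd8b1 was seen in 11.4%, Cd4 in 4.48% and both in 0 of 1250 cells. Cells with CD3 and neither coreceptor made up 62.0%. The share with a Cd8 UMI was lowest in libraries 3 and 4, at 5.33% and 4.23%, and 10.3% to 24.2% in the others. Foxp3, the factor of regulatory T cells, was seen in 0.800% of cells, and Cd163l1, known from interleukin-17-producing gamma-delta T cells, in 0.880%. At the same depth, Cd8a or Cd8b1 was seen in 13.5% of cluster 15 cells and 26.2% of the 42 cells of cluster 16. Both shares were above that of cluster 14. A CD3 UMI was seen in 22.7% of cluster 15 and 69.0% of cluster 16 cells. Cd4 was seen in 0 of 304 cells of cluster 15 and 1 of 42 of cluster 16. The median cell held 1875 UMIs in cluster 14 and 2281 in cluster 3, so a missing UMI does not show that a gene was silent.

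Few cells of cluster 14 held UMIs of both Cxcr6 and the circulation genes Ccr7 or S1pr1. At 1000 UMIs a cell, Cxcr6 was seen in 25.0% of cells and Ccr7 or S1pr1 in 14.2%, while 6 of 1250 cells (0.480%) held both and 767 (61.4%) held none of the 3. Detection this sparse also keeps the count of cells with both low, and its part was not tested. The share with Cxcr6 was 21.3% in library 1, 13.2% in library 2, 51.3% in library 3, 38.6% in library 4, 9.96% in library 5, 7.75% in library 6 and 38.5% in library 7. The share with Ccr7 or S1pr1 was 28.8%, 28.6%, 5.33%, 3.17%, 22.4%, 18.8% and 7.69% in libraries 1 to 7. Libraries 3, 4 and 7 were thus high for Cxcr6 and low for Ccr7 and S1pr1. At the same depth, Cxcr6 was seen in 2.30% of cluster 15 cells, 9.52% of cluster 16 cells and 0.00402% of cluster 3 cells. Ccr7 or S1pr1 was seen in 16.7% of cells of the B lymphocyte-like cluster 13, above the share in cluster 14. It was seen in 3.29% of cluster 15 cells and 9.52% of cluster 16 cells.

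To describe this division, cluster 14 was split into 482 cells with a Cxcr6 UMI and 826 without, a split chosen after the data had been seen. It is therefore a description, with no p-value. Ccr7 had 7 UMIs in the cells with Cxcr6 and 313 in those without. By library, Ccr7 had 0 to 86.4 CPM with Cxcr6 and 88.6 to 370 CPM without, and the classes did not overlap. S1pr1 had 9 UMIs with Cxcr6 and 211 without, and Dapl1 had 5 with Cxcr6 and 253 without. These pooled UMIs weigh libraries unequally: libraries 3 and 4 held 108 and 221 of the cells with Cxcr6, and 42 and 157 of those without. By library, S1pr1 had 0 to 85.2 CPM with Cxcr6 and 29.7 to 267 CPM without. Dapl1 had 0 to 85.2 CPM with Cxcr6 and 44.3 to 448.5 CPM without. Both ranges overlap, and both genes were lower with Cxcr6 in 7 of 7 libraries. Klf2, a transcription factor that drives S1pr1, had 0 to 633 CPM with Cxcr6 and 326 to 857 CPM without, and was lower with Cxcr6 within each library although the ranges overlap. Lef1 had 21.9 to 86.4 CPM with Cxcr6 and 80.9 to 380 CPM without. Its ranges overlap too, and it was lower with Cxcr6 in 7 of 7 libraries.

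Other genes ran the opposite way and were higher with Cxcr6. Id2, a repressor of E proteins, had 897 to 2315 CPM with Cxcr6 and 295 to 1157 CPM without. The chemokine receptor gene Cxcr3 had 51.1 to 341 CPM with Cxcr6 and 26.8 to 111 CPM without. Il2rb, a receptor chain for interleukins 2 and 15, had 85.2 to 547 CPM with Cxcr6 and 25.9 to 197 CPM without. The ranges of these 3 genes overlap, and each was higher with Cxcr6 in 7 of 7 libraries. Ccr2, Klrk1, Ctsw, Rora, F2r, Hopx, S100a6, Bcl2a1b and Ly6g5b were also higher in all 7, with median log2 folds of 1.51 to 1.96.

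Counted over all genes, 55 of 16271 (0.338%) were higher with Cxcr6 in all 7 libraries with a median of at least 2-fold, and 31 (0.191%) were lower. This rule was itself set after the first one tried, 2-fold in every library, had given 0 higher and 6 lower genes, among them Dapl1, S1pr1, Ccr7, Actn1 and Treml2. Without library 4 the higher count was 84, and without library 1, 3, 4, 5 or 6 the lower count was 52, 69, 59, 53 or 50. Of the 11 circulation genes 9 were lower by the second rule, with a list median of -1.90 against 0 for all genes. Of 11 residency genes other than Cxcr6, 2 were higher, Cd44 and Podnl1, with a list median of 0.57. Cd69 and Itgae, widely used residency markers, had 102 and 4 UMIs with Cxcr6 and 211 and 12 without, and log2 folds of -0.04 and 0.00. Of the CD3 genes, Cd3e was higher in 7 of 7 libraries with a log2 fold of 1.06. Cd3g was higher in 7 of 7 with 0.76, below the 2-fold median of the rule. Cd3d was higher in 5 of 7 with 0.36. The median cell held 1944 UMIs with Cxcr6 and 1845 without. The 15 proximal tubule markers summed to 4378 to 15946 CPM with Cxcr6 and 3343 to 19130 CPM without and were higher with Cxcr6 in 1 of 7 libraries. The 10 monocyte markers summed to 409 to 1705 CPM with Cxcr6 (median 895) and 326 to 1159 CPM without (median 359), higher with Cxcr6 in 7 of 7 libraries, and 1 of the 10, Ccr2, was among the higher genes. The 10 endothelial markers summed to 14.6 to 105 CPM with Cxcr6 (median 33.6) and 66.4 to 177 CPM without (median 83.6), higher with Cxcr6 in 1 of 7, and 1 of the 10, Pecam1, was among the lower genes. The part of these transcripts in the folds was not tested.

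**Figure D4:**
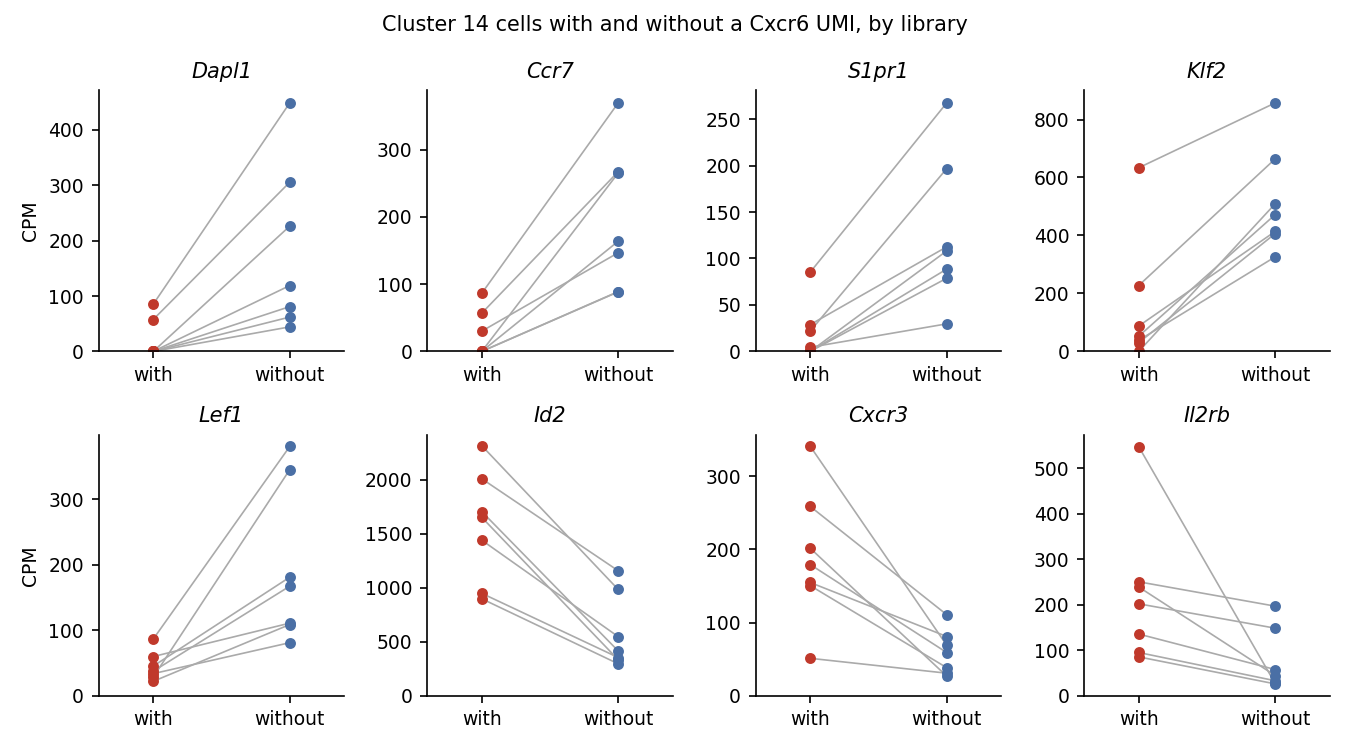
CPM of 8 genes in cluster 14 cells with a Cxcr6 UMI (left, red) and without one (right, blue); each point is the summed cells of a library and grey lines join the classes of a library. Dapl1 is at 0 in 5 of 7 libraries with Cxcr6, and every line in the panels of Id2, Cxcr3 and Il2rb falls toward the cells without it.

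The cells of cluster 14 without a CD3 UMI were higher in Tyrobp, Fcer1g and Cd7 than those with one. They were 181 cells, against 1127 with a CD3 UMI, and 5 libraries (1, 3, 4, 5 and 6) had at least 10 cells of both classes. Tyrobp had 325, 900, 1010, 225 and 309 CPM in the cells without CD3 in libraries 1, 3, 4, 5 and 6, against 14.8, 12.01, 34.1, 5.47 and 0 CPM in the cells with CD3. The classes did not overlap in Tyrobp, and the log2 fold was 5.37 ± 0.32 (SE; adjusted p = 1.21e-09 by edgeR's quasi-likelihood test with library as a block and Benjamini-Hochberg adjustment). Fcer1g, the gamma chain shared by Fc and natural killer receptors, had 145 to 1034 CPM without CD3 and 25.5 to 93.0 CPM with CD3, a log2 fold of 3.85 ± 0.31 (edgeR adjusted p = 9.69e-08). Cd7, a surface protein of T and innate lymphoid cells, had 130 to 844 CPM without CD3 and 39.0 to 102 CPM with CD3, with a log2 fold of 2.50 ± 0.34 (edgeR adjusted p = 0.000229).

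In all, 16 of 1216 genes tested (1.32%) were higher without CD3 and 16 (1.32%) were lower, at an edgeR adjusted p under 0.05. The other higher genes named by rule were Cd81, Gata3, Rgs1, Lmo4, Xcl1, Ppp1cc, Cnot6l, Klrd1 and Serinc3, with log2 folds of 0.98 to 1.55. Gata3 encodes a transcription factor of type 2 lymphocytes. Thy1 was lower, with 21.3 to 195 CPM without CD3 and 113 to 428 CPM with CD3, a log2 fold of -2.63 ± 0.33 (edgeR adjusted p = 8.37e-05). Cd8b1, Ifi27l2a, Ly6c2, Cd48, Ms4a6b, Cd2, Lsp1, Fyb, Lgals1, Coro1a and Arpc2 were lower as well, with log2 folds of -0.72 to -1.72. Il7r had 195 to 634 CPM without CD3 and 174 to 390 CPM with CD3, and its difference did not pass (log2 fold 0.70, edgeR adjusted p = 0.0553). None of the 6 tested genes of T cell receptor signalling passed, and their median log2 fold was -0.58 against -0.01 for all genes tested.

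These counts depended on single libraries. Without library 1, 3 or 4 the higher count was 9, 4 or 7, and without library 1, 3, 4, 5 or 6 the lower count was 4, 3, 4, 7 or 8. Tyrobp and Fcer1g kept an edgeR or DESeq2 adjusted p under 0.05 in the 11 alternatives in which they were tested, and Cd7 in 10 of 11; after thinning to 1000 UMIs these genes were not among those tested. Tyrobp and Fcer1g are also genes of myeloid cells, and among the other clusters Tyrobp was highest in cluster 12 at 3831 CPM and Fcer1g in cluster 10 at 2561 CPM, beside 1882 and 1636 CPM in cluster 15. The 15 natural killer markers summed to 1805 CPM without CD3 and 211 CPM with CD3, beside 16834 CPM in cluster 15. Tyrobp and Fcer1g are themselves among the 15. Of the 1805 CPM, Fcer1g held 610, Tyrobp 549 and Irf8 161 CPM, and 2 markers, Prf1 and Khdc1a, were at 0 without CD3. Pooled over all libraries, Ncr1 had 134 CPM without CD3 and 2.83 CPM with CD3, beside 440 CPM in cluster 15, and Gzma had 52.6 CPM without CD3 and 41.6 CPM with CD3, beside 10092 CPM in cluster 15. The 12 genes of group 2 innate lymphoid cells summed to 780 CPM without CD3 and 330 CPM with CD3, beside 388 CPM in cluster 15. The 2 of them tested, Gata3 and Lmo4, were both higher. Gata3 kept an edgeR or DESeq2 adjusted p under 0.05 in 4 of 11 alternatives and Lmo4 in 7 of 11. Other lists were higher too: 10 natural killer T genes summed to 1133 CPM without CD3 and 494 CPM with CD3. The 12 cytotoxic granule genes had 1980 and 1592 CPM, while 21 genes of T cell receptor signalling were lower, at 1829 and 2776 CPM. Il1rl1, the interleukin-33 receptor, had 67.2 CPM without CD3 (23 UMIs) and 3.23 CPM with CD3 (8 UMIs), and Areg had 0 in both. The median cell held 1583 UMIs without CD3 and 1920 with CD3. The 11 dendritic cell markers summed to 292 CPM without CD3 and 61.9 CPM with CD3, 6 of them at 0 without CD3. The 11 macrophage markers summed to 245 CPM without CD3 and 108 CPM with CD3, 8 of them at 0 without CD3, and the 10 monocyte markers to 508 CPM without CD3 and 823 CPM with CD3, 4 of them at 0 without CD3. The 15 proximal tubule markers summed to 11909 CPM without CD3 and 10947 CPM with CD3; the part of these in the differences was not tested.

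**Figure D5:**
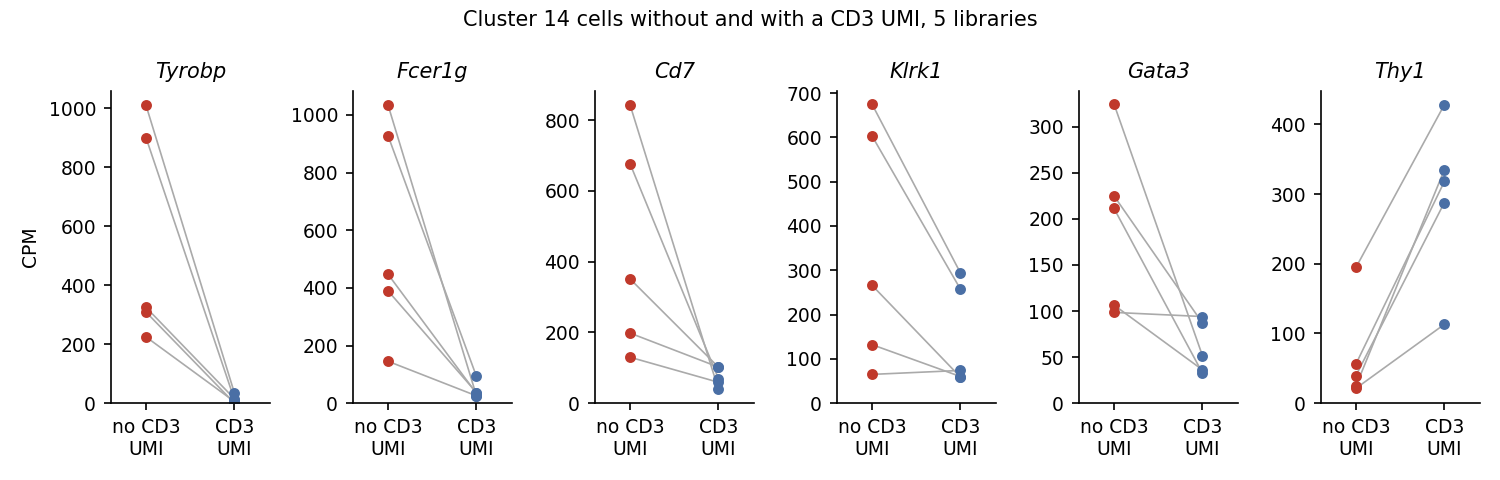
CPM of 6 genes in cluster 14 cells without a CD3 UMI (left, red) and with one (right, blue) in the 5 libraries used; each point is the summed cells of a library and grey lines join a library's classes. Tyrobp and Fcer1g do not overlap between the classes, and Klrk1 is lower without CD3 in 1 library.

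Among the cells with CD3, the 816 without a Cd4 or Cd8 UMI differed from the 311 with one at the smallest adjusted p in the chemokine gene Ccl5. Ccl5 had 406 to 2929 CPM without a coreceptor, with a median of 1147, and 947 to 5863 CPM with one, with a median of 2641. It was lower without a coreceptor in 7 of 7 libraries although the ranges overlap, with a log2 fold of -1.36 ± 0.12 (edgeR adjusted p = 2.20e-06). Klrk1, the activating receptor NKG2D, was higher without a coreceptor, with 73.8 to 336 CPM without one and 0 to 126 CPM with one (log2 fold 1.63 ± 0.27, edgeR adjusted p = 0.00195). Id2 had 447 to 2042 CPM without a coreceptor and 239 to 1188 CPM with one (log2 fold 0.75 ± 0.12, edgeR adjusted p = 0.00195). Cxcr6 was higher without a coreceptor in 6 of 7 libraries, with a log2 fold of 0.68 ± 0.18 (edgeR adjusted p = 0.0250).

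Of 1323 genes tested, 26 (1.97%) were higher without a coreceptor and 76 (5.74%) lower. Of 81 ribosomal protein genes tested, 61 were among the lower and 0 among the higher, with a median log2 fold of -0.28 against 0.03 for all genes tested, while 5 of 12 mitochondrially encoded genes were among the higher. Gimap3 and Gimap4, with log2 folds of 0.67 and 0.55, were higher, and the 7 tested circulation genes had a median of -0.50 with none past the threshold. Without libraries 3 and 4 together, 0 genes were higher and 1 lower, and Ccl5 still passed with -1.20; no other pair of libraries was left out. Without library 3, 4 or 6 the higher count was 7, 10 or 8, and without library 3, 4, 5 or 6 the lower count was 33, 30, 43 or 38. After thinning to 1000 UMIs a cell 10 were higher and 10 lower, and without the 10% of cells with the most UMIs 2 were higher and 1 lower. The median cell held 1875 UMIs without a coreceptor and 2069 with one. The 12 tested proximal tubule markers had a median log2 fold of 0.36 and none passed; their part was not tested.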

How the data were processed

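The submitters' processing notes name Cell Ranger 1.3, the aligner STAR and the builds mm10 and GRCm38.p4. The authors deposited a single matrix of UMI counts, 16272 genes by 43745 cells, with a cluster number per cell; how cells were filtered and clustered is not given in the sources used here. The labels state 57979 cells. Values were checked to be whole. Libraries held 4217169 to 49997616 UMIs, and cluster 14 held 95414 to 817006 per library; intervals and floors cover counting error only. No doublet caller was run. The members and the gene lists were chosen with earlier results of these data known.

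Counts were summed per library and cluster or class. Folds are log2 with 10 CPM added, and cells were thinned to 1000 UMIs for shares. Class differences were tested in R 4.3.3 with edgeR 4.0.16 (TMM, filterByExpr, quasi-likelihood F test, library as a block because both classes come from the same kidney, at least 10 cells per class) and Benjamini-Hochberg adjustment over all genes tested; the CD3 genes, and the coreceptor genes in the second test, were left out. With this block, p-values measure how the class difference within a library varies between libraries, and not the spread of levels between libraries. The test was checked on simulated counts. DESeq2 1.42.0, other scalings and filters, thinning, no block and each library left out were alternatives.

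Named genes were the 20 with the largest median fold over the other clusters among genes at least 2-fold higher in every library (median level at least 50 CPM), the 10 per direction against cluster 15 by the same rule, up to 12 per direction in each test with the same sign in every library and at least 20 counts, and members of the gene lists; genes of the first Cxcr6 rule and of the 10 largest folds per direction of the Cxcr6 split were named after their values were seen, and 1 gene is not reported here. Of the gene symbols, 15721 were found in the gene-name table. Figures were drawn with matplotlib 3.10.9 in Python 3.11.15.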

Additional observations from a re-analysis of the deposited data

Results flagged for a closer look

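Of 47 sets of 7 library values in cluster 14 checked with Dixon's criterion, 3 had a library far from the others, where chance flags about 1 in 20. The share of cells with a Foxp3 UMI at 1000 UMIs a cell was 5.13% in library 7, which has 39 cluster 14 cells, and the next highest library had 1.25%. The share with a Cd163l1 UMI was 2.90% in library 5, and the next highest library had 0.794%. Lat had 509 CPM in library 1, and the next highest library had 363 CPM.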

How the results depend on the processing

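Shares of cluster 14 moved little: leaving out a library gave medians of 2.18% to 2.93%. Shares with a UMI had medians, with a library left out, of 76.2% to 79.0% for CD3, 3.73% to 4.46% for Cd4, 11.8% to 15.1% for Cd8 and 17.2% to 29.9% for Cxcr6; without thinning, CD3 was 88.7% and Cd4 7.69%. Counts of genes by fold depended on the added CPM. Over the other clusters, 210 were higher and 1082 lower with 1 CPM, 63 and 90 with 50 CPM, and 1 and 3409 against the highest other cluster, with 138 to 180 and 356 to 423 with a library left out. Over cluster 15, 141 were higher with 1 CPM, and 4 higher and 30 lower with 50 CPM; leaving out a library gave 32 to 50 and 59 to 74. With Cxcr6, 86 were higher and 53 lower with 1 CPM, 15 and 11 with 50 CPM, 20 and 50 after thinning, and 0 and 6 by the rule tried first, with 54 to 84 and 41 to 69 with a library left out.

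Without CD3, 33 were higher and 139 lower with no filter on low counts, 3 and 0 with no replicate block, 7 and 10 with a gate of 7 genes, and 6 lower with DESeq2 or its size factors; leaving out a library gave 4 to 17 and 3 to 8. Without a coreceptor, 10 were higher with DESeq2, 7 lower with no filter, 0 and 0 with no replicate block, 10 and 10 after thinning, 2 and 1 without the deepest cells, and 0 and 1 without libraries 3 and 4; leaving out a library gave 7 to 25 and 30 to 78. The causes were not tested. Of the single named genes' values under alternatives, 311 kept and 255 lost their call, and Wdr89 turned to 0.045 after thinning. Libraries 2 and 7 had too few cells for the CD3 test, and the depth limits how many coreceptor transcripts can be seen.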
